A study of Rattus norvegicus with 6 samples.

Results

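The A-kinase anchoring protein (AKAP) genes Akap1, Akap8, Akap9, Akap10, Akap11, Akap12 and Akap13 were followed in the RNA-seq libraries of rat chondrocytes. These 7 genes were found by symbol, 1 row each, among the 18420 genes of the deposited table. All 7 passed the filter on low counts, as did 13250 genes in all. The set was chosen by the read counts of these genes in the same 2 groups, with the difference of Akap12 already known, so the values of the 7 genes in this contrast are given as a description. Where calls among them are counted, the share over all genes stands beside the count and nothing is read from it. Primary chondrocytes came from the articular cartilage of wild-type male Sprague-Dawley rats and were used at the third passage. The TNF-α group (3 libraries) was kept in TNF-α at 10 ng/mL during 6 h. The TNF-α+NFL group (3 libraries) received the same TNF-α treatment and then NFL for another 24 h. NFL is a lysate, made by freezing and thawing, of the cells in Nanofat from rat abdominal fat, used as the supernatant after debris was spun out. No group without TNF-α was analysed here. The labels give times of 6 h (TNF-α) and 30 h (TNF-α+NFL), so the effect of NFL and that of the later time cannot be told apart. The study calls the libraries of a group independent biological replicates. Its cultures were divided from cells of the same passage and the labels name no separate animals, so p-values measure the spread between these libraries. Directions follow the deposited group names. If M and T in the column headings of the study's supplementary gene list stand for the TNF-α and the TNF-α+NFL group, that list gives the opposite direction, and which naming is right was not tested.

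AKAPs are scaffold proteins that hold protein kinase A (PKA), the kinase switched on by cyclic AMP, at defined places in the cell. A short helix in the scaffold binds the regulatory subunits of PKA, and other stretches bind phosphatases, phosphodiesterases, other kinases and receptors, so that a cyclic AMP signal acts on nearby substrates. In chondrocytes the cyclic AMP pathway is best known as the route by which parathyroid hormone-related peptide slows hypertrophy. The proteins share the ability to bind PKA and otherwise differ widely in sequence and place.

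The libraries held between 19344893 and 19725135 estimated counts. The first principal component of the normalized counts, with 26.1% of the variance, set TNF-α replicate 1 and TNF-α replicate 3 at opposite ends, and the TNF-α+NFL libraries lay between them. The label chondrocyte was compared with its markers. Of 15 chondrocyte markers, 13 were above 3 counts in every library, and the list summed to 1390 to 1821 TPM with TNF-α and 1531 to 1685 TPM with TNF-α+NFL (TPM is the level per transcript length, scaled to the same sum in each library). Within it, Prg4, the lubricin of the cartilage surface, lay between 948 and 1329 TPM and the minor cartilage collagen Col11a1 between 404 and 533 TPM, whereas the main cartilage collagen Col2a1 lay between 7.10 and 9.54 TPM. The fibroblast collagen Col1a1 lay between 1123 and 1401 TPM.

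Akap12 encodes gravin, also called SSeCKS, a scaffold below the plasma membrane that binds PKA, protein kinase C and the β2-adrenergic receptor. Its estimated counts came to 3678, 4089 and 3923 for TNF-α replicates 1, 2 and 3, and 5348, 5019 and 5508 for TNF-α+NFL replicates 1, 2 and 3. The normalized counts (CPM, the count divided by the library size, with TMM factors, on a common scale) were 193, 207 and 198 in the TNF-α group and 273, 257 and 280 in the TNF-α+NFL group, in the same order. All TNF-α+NFL libraries were above all TNF-α libraries, and the gap between the groups was wider than the range within either of them. Means were 199 ± 7.25 CPM (SD, n = 3) with TNF-α and 270 ± 11.96 CPM (SD, n = 3) with TNF-α+NFL, a 1.36-fold difference and a log2 fold change of 0.44 (standard error 0.044). Akap12 was the 1 gene of the 7 past an adjusted p of 0.05 in edgeR's quasi-likelihood test, where 0.611% of all tested genes passed, 0.408% as higher and 0.204% as lower in the TNF-α+NFL group. With 1 library left out at a time, the log2 fold change ran from 0.41 to 0.47. In bulk RNA, more RNA per cell and more cells of a type that expresses a gene cannot be told apart.

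**Figure D1:**
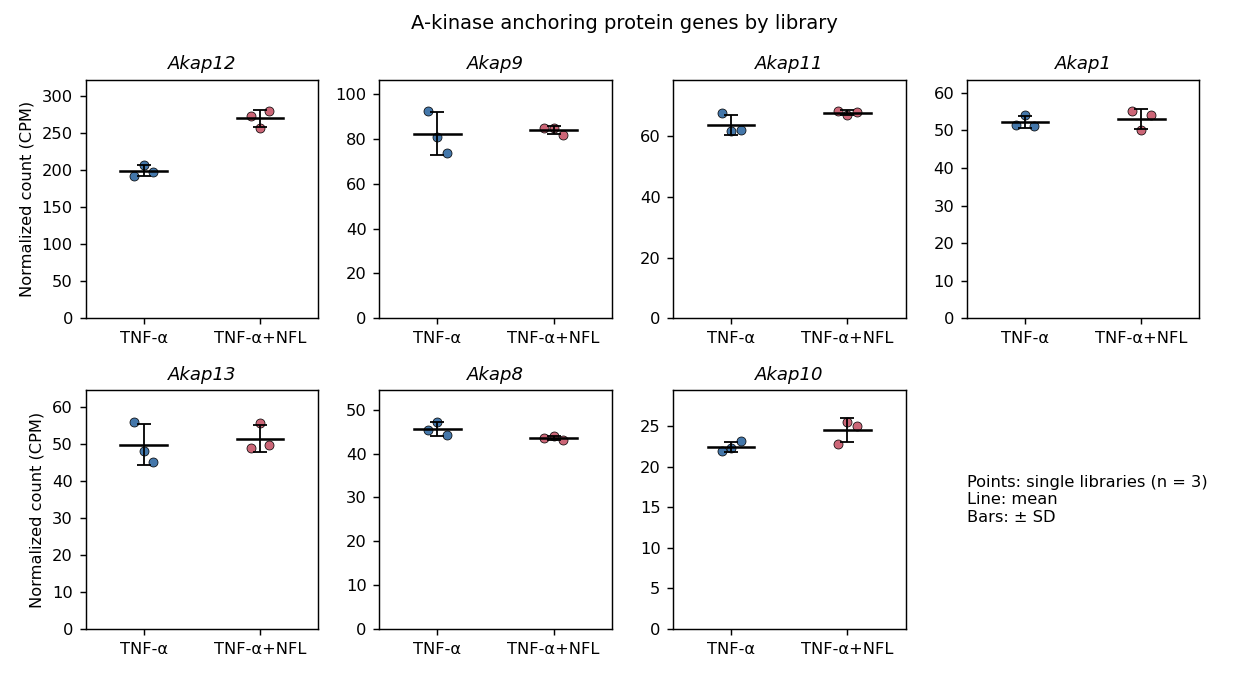
Normalized counts (CPM, vertical axes starting at 0) of the 7 AKAP genes in the 3 TNF-α and the 3 TNF-α+NFL libraries. Points are libraries, lines are means and bars are ± SD; the Akap12 groups are apart (193 to 207 against 257 to 280 CPM), and of the other genes only Akap8 has groups that do not overlap, by a narrow gap.

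To show the DNA in front of the AKAP genes with the largest differences, the 250 bases before the start listed by RefSeq (GRCr8) were taken for Akap12, Akap6 and Akap5, a choice made after their values were seen. All 3 lie on the + strand, Akap12 at chr1:43135265-43135514, Akap6 at chr6:75919263-75919512 and Akap5 at chr6:100786919-100787168. Capitals mark CAGAC on either strand (GTCTG when read on this one), the letters of the SMAD box through which TGF-β signaling reaches DNA.
Akap12: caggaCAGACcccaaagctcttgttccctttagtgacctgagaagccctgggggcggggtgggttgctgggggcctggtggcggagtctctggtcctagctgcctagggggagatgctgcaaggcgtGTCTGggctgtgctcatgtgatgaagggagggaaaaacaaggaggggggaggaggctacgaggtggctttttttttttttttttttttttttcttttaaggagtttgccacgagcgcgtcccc
Akap6: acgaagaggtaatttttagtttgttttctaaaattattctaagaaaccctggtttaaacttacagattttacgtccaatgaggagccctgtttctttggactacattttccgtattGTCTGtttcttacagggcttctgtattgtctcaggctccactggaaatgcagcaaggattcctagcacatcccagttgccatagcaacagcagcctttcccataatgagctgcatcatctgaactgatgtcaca
Akap5: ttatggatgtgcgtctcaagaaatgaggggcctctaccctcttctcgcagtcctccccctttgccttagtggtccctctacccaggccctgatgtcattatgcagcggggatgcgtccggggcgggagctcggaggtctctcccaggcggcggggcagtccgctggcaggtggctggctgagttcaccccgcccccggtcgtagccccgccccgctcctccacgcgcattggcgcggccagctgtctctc

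The window of Akap12 held the SMAD letters at -245 and -123 from the start, that of Akap6 at -134, and that of Akap5 did not hold them. Over the 17 windows of all 16 AKAP genes in the table, 6 held CAGAC on either strand, and so did 42.9% of the 33469 windows of all genes. The full cAMP response element, TGACGTCA, was found in 1 of the 17, that of Akap17a, and in 1.59% of all windows. Its shorter form TGACG, which the full element contains, was found in 3 of the 17 and in 18.2% of all. The AP-1 letters TGANTCA were in 0 of the 17 (6.34% of all), the TEAD letters GGAATG in 1, that of Akap7 (12.1% of all), and the CArG box of serum response factor in 0 (1.5% of all). The GC content was 55.6% for Akap12, 40.8% for Akap6 and 66.8% for Akap5, against a median of 51.2%. These matches describe letters in a window and do not show a binding site. RefSeq lists several transcript forms of Akap12 as its older names, AKAP12A, AKAP12B and AKAP12G, and the deposited values are summed over a gene, so the start that gave the reads is not known.

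Levels between genes were compared on the TPM scale. In the TNF-α group Akap12 was the second highest of the 16 AKAP genes, at 63.7 ± 1.78 TPM (SD, n = 3), behind Akap2 at 104 ± 6.23 TPM (SD, n = 3). It was followed by Akap1 at 28.3 ± 0.436 TPM (SD, n = 3), and the libraries of these 3 genes did not overlap with each other. Akap1, Akap17a, Akap8 and Akap8l, between 21.98 and 29.1 TPM, formed a run in which each overlapped its neighbour. A lower run held Akap11, Akap9 and Akap10, with means of 14.7, 13.03 and 12.4 TPM, in which neighbours also overlapped. Akap13 was lower, at 7.92 ± 1.07 TPM (SD, n = 3), and overlapped with Akap7. In the TNF-α+NFL group Akap12 was again second, at 88.5 ± 3.42 TPM (SD, n = 3), and Akap2 again first, at 118 ± 2.56 TPM (SD, n = 3). Akap12 made up 18.0%, 19.9% and 19.2% of the summed TPM of the 16 AKAP genes in TNF-α replicates 1, 2 and 3, and 23.6%, 22.1% and 24.1% in TNF-α+NFL replicates 1, 2 and 3. Akap2 made up 31.0 ± 0.892% (SD, n = 3) and 31.0 ± 0.472% (SD, n = 3), so its share did not differ beyond the spread.

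**Figure D2:**
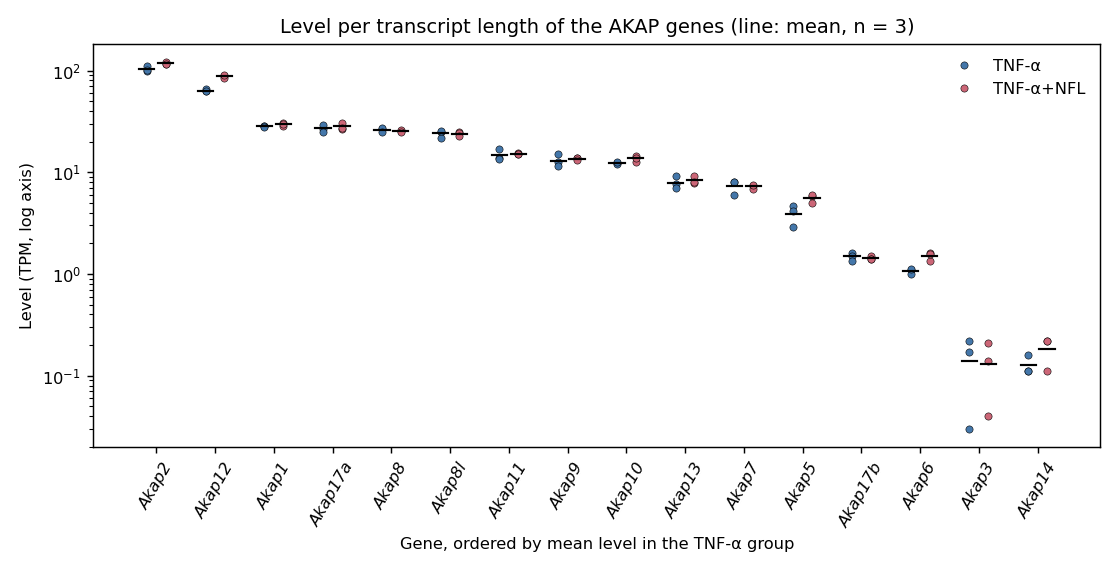
Level per transcript length (TPM, log axis) of the 16 AKAP genes in the table, ordered by the mean in the TNF-α group; points are libraries (3 per group) and lines are means. Akap2 and Akap12 stand above the rest in both groups, and Akap3 and Akap14 lie below 0.3 TPM.

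The other 6 genes showed smaller differences. Akap1, which anchors PKA on the outer mitochondrial membrane, was at 51.5, 54.2 and 51.2 CPM in TNF-α replicates 1, 2 and 3 and at 55.2, 50.1 and 54.0 CPM in TNF-α+NFL replicates 1, 2 and 3. The groups overlapped, with a log2 fold change of 0.022 (standard error 0.051), which turned to -0.0055 without TNF-α+NFL replicate 1 and was 0.062 without TNF-α+NFL replicate 2. Akap10, an anchor able to bind both types of regulatory subunit, was at 21.9, 22.3 and 23.1 CPM and at 22.8, 25.6 and 25.0 CPM, in the same order. The lowest TNF-α+NFL library lay inside the range of the TNF-α group, and the log2 fold change was 0.13 (standard error 0.063).

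Akap11, which also binds glycogen synthase kinase 3 and protein phosphatase 1, was at 67.6, 61.7 and 62.2 CPM in the TNF-α group and at 68.4, 66.9 and 68.1 CPM in the TNF-α+NFL group. TNF-α replicate 1 was the library that overlapped with the other group, and the log2 fold change was 0.087 (standard error 0.047). Without that library it was 0.13, and with limma on log2(FPKM + 1) and log2(FPKM + 0.1) it was 0.027 and 0.030. The estimated counts of Akap10 and Akap11 were fractional in all 6 libraries, so part of their reads were shared with other loci by the estimate, whereas the other 5 genes had whole counts throughout.

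Akap9, the large scaffold of the centrosome and the Golgi, was at 92.5, 80.7 and 73.9 CPM in the TNF-α group and at 85.0, 84.8 and 81.9 CPM in the TNF-α+NFL group. Akap13, a scaffold that is also an exchange factor for the GTPase RhoA, was at 56.2, 48.3 and 45.3 CPM and at 49.0, 55.8 and 49.8 CPM, in the same order. In both genes TNF-α replicate 1 was the highest and TNF-α replicate 3 the lowest of all libraries, and the TNF-α+NFL libraries lay within that range. The log2 fold changes were 0.027 (standard error 0.071) for Akap9 and 0.046 (standard error 0.082) for Akap13. Without TNF-α replicate 1 they were 0.12 and 0.14, and without TNF-α replicate 3 they were -0.044 and -0.017, so the direction of these genes rested on single libraries. Akap13 also turned below 0, to -0.014, without TNF-α+NFL replicate 2.

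Akap8, a nuclear anchor that takes part in chromosome condensation, was at 45.3, 47.3 and 44.2 CPM in the TNF-α group and at 43.6, 44.1 and 43.1 CPM in the TNF-α+NFL group. All TNF-α+NFL libraries were below all TNF-α libraries, by a gap narrower than the range within either group, and on the TPM scale the groups overlapped. The log2 fold change was -0.066 (standard error 0.048), the 1 value below 0 among the 7 genes, and it stayed below 0 in each of the 15 fits run. Groups that do not overlap were found in 2 of the 7 genes, Akap12 (higher) and Akap8 (lower), and in 16.8% of all tested genes, 8.66% as higher and 8.17% as lower. The median log2 fold change was 0.046 over the 7 genes and 0.036 over the 6 without Akap12, against -0.0035 over all tested genes.

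Akap12 was then set against the other 6 genes within each library, which removes the scaling between libraries. The log2 CPM of Akap12 minus the mean log2 CPM of the other 6 was 1.91, 2.08 and 2.07 in TNF-α replicates 1, 2 and 3, and 2.45, 2.33 and 2.48 in TNF-α+NFL replicates 1, 2 and 3. The means were 2.02 ± 0.096 (SD, n = 3) and 2.42 ± 0.079 (SD, n = 3), a difference of 0.40. It was 0.34 when TNF-α replicate 1 was left out, the lowest of the alternatives, and 0.44 when TNF-α+NFL replicate 2 was left out, the highest. Against single genes, the log2 fold change of Akap12 was larger by 0.31 (Akap10) to 0.51 (Akap8), and the ratio of Akap12 to each of the 6 was higher in all TNF-α+NFL libraries than in any TNF-α library.

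**Figure D3:**
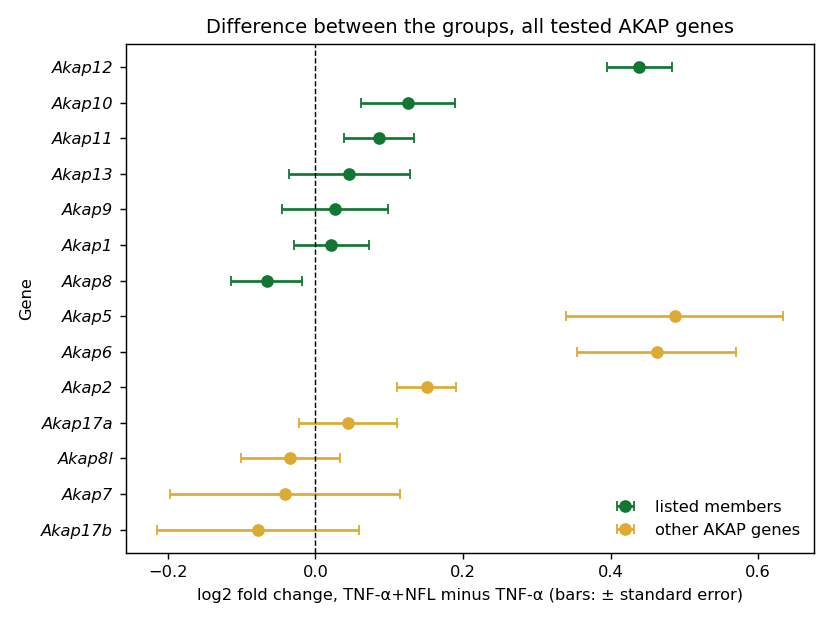
Log2 fold change between the TNF-α+NFL and the TNF-α group (horizontal axis, bars ± standard error) for the 7 listed genes and the 7 other AKAP genes that passed the filter on low counts. Akap12, Akap5 and Akap6 lie between 0.44 and 0.49, with wider bars for the low-count genes Akap5 and Akap6, and the rest lie between -0.077 and 0.15.

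The question of whether Akap12 stood alone was taken to the AKAP genes outside the list. The table held 9 further AKAP genes, of which 7 passed the filter. P-values came from edgeR's quasi-likelihood test, adjusted by Benjamini-Hochberg over all genes. Of these 7, 0 were past an adjusted p of 0.05, where 0.611% of all tested genes were. At an unadjusted p under 0.05 there were 3, all higher in the TNF-α+NFL group, where 11.1% of all tested genes passed, 5.66% as higher and 5.45% as lower. The DESeq2 Wald test called 1, Akap2, and by its own filter gave an adjusted p to only 2 of the 7, Akap2 and Akap17a, where 2.44% of the genes given one were called, 1.57% as higher and 0.875% as lower. The 3 genes were Akap6, Akap2 and Akap5, and in each of them all TNF-α+NFL libraries were above all TNF-α libraries, as in 8.66% of all tested genes.

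Akap5, a membrane anchor of PKA, protein kinase C and calcineurin, was at 6.33, 5.87 and 4.10 CPM in the TNF-α group and at 7.92, 8.04 and 6.87 CPM in the other. The log2 fold change, 0.49 (standard error 0.15, edgeR adjusted p = 0.21), was close to that of Akap12, at counts between 81 and 157 per library, but fell to 0.32 without TNF-α replicate 3. Akap6, known from the nuclear envelope of muscle cells, was at 5.55, 5.47 and 5.92 CPM and at 6.996, 8.04 and 8.30 CPM, in the same order. Its log2 fold change was 0.46 (standard error 0.11, edgeR adjusted p = 0.081). Neither passed the threshold in edgeR over all libraries.

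Akap2, an anchor bound to the actin cytoskeleton, was at 387, 356 and 369 CPM in the TNF-α group and at 404, 419 and 412 CPM in the other, with a log2 fold change of 0.15 (standard error 0.040, edgeR adjusted p = 0.14). RefSeq now lists this gene as Pakap, joined with Palm2, and its counts were fractional in all 6 libraries, so its values are uncertain. Without TNF-α replicate 1, Akap2, Akap5 and Akap6 were all past 0.05, with log2 fold changes of 0.18, 0.61 and 0.45. That fit called 930 of 13409 genes, 6.94%, of which 460 (3.43%) were higher and 470 (3.51%) lower. In the other 5 fits that left out 1 library, none of the 3 was past it in edgeR.

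Of the remaining AKAP genes, Akap17a, linked to RNA splicing, was at a log2 fold change of 0.044 (standard error 0.066, edgeR adjusted p = 0.88). Akap8l, the nuclear relative of Akap8, was at -0.034 (standard error 0.067, edgeR adjusted p = 0.91), Akap7 at -0.042 (standard error 0.16, edgeR adjusted p = 0.96) and Akap17b at -0.077 (standard error 0.14, edgeR adjusted p = 0.90). Their groups overlapped. The direction turned for Akap17a without TNF-α+NFL replicate 2 (-0.0093) and for Akap8l and Akap7 without TNF-α replicate 3 (0.018 and 0.045). It also turned for Akap8l without TNF-α+NFL replicate 3 (0.0048) and for Akap7 without TNF-α replicate 1 (0.011). Akap3 and Akap14, known from sperm, had between 1 and 6 counts in a library and were not tested.

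Genes of the PKA pathway were compared as lists written from general knowledge, with 86 genes tested, including the 7 AKAP genes just described but not Akap12 and the 6 others listed first. Of these 86, 0 were past an adjusted p of 0.05 in edgeR, where 0.611% of all tested genes were. With so small a share, a count of 0 does not set these lists apart from all genes. The DESeq2 Wald test called 2 and gave an adjusted p to 46 of the 86 (2.44% called over all genes given one). Limma-voom called 0 of the 86, and 35 of all 13250 genes. At an unadjusted p under 0.05 in edgeR, 9 were higher and 2 lower, against 5.66% and 5.45% of all tested genes. Groups that did not overlap were found for 9 as higher and 4 as lower, against 8.66% and 8.17%. The median log2 fold change of the 86 was 0.027, and with 1 library left out it ran from 0.010 (without TNF-α+NFL replicate 2) to 0.045 (without TNF-α replicate 1). Without TNF-α replicate 1, 4 were called as higher (Akap2, Akap5, Akap6 and Crebbp) and 2 as lower (Ccnd1 and Ppp1cc). These 6 of 86 stood against 6.94% of all genes called in that fit, a share close to theirs. In each of the other 5 fits that left out a library 0 were called, and these fits called from 5 to 41 genes in all.

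For the kinase that AKAPs bind, 0 of the 4 regulatory subunit genes passed an unadjusted p of 0.05 in edgeR, which 11.1% of all tested genes passed. Prkar2a, whose product is the classical partner of AKAPs, was at 71.5 ± 4.33 CPM (SD, n = 3) with TNF-α and 75.9 ± 1.47 CPM (SD, n = 3) with TNF-α+NFL, with a log2 fold change of 0.087 (standard error 0.050, edgeR adjusted p = 0.57). Prkar1a, the most abundant of the 4 on the TPM scale, was at 0.044 (standard error 0.043, edgeR adjusted p = 0.77). Among the catalytic subunits and inhibitors, 0 of 4 tested genes passed it, with log2 fold changes from 0.030 to 0.079. Prkaca, the main catalytic subunit, was at 0.079 (standard error 0.046, edgeR adjusted p = 0.58) and the inhibitor gene Pkig at 0.074 (standard error 0.050, edgeR adjusted p = 0.65). Of 13 genes whose proteins anchor PKA beside another function, such as ezrin, 0 passed it (11.1% of all tested genes) and 10 had a log2 fold change below 0, as did 6865 of all 13250 genes tested. The lowest unadjusted p values there were those of Map2, at -0.094 (standard error 0.072, edgeR adjusted p = 0.69), and of Myrip, at -0.26 (standard error 0.26, edgeR adjusted p = 0.79).

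**Figure D4:**
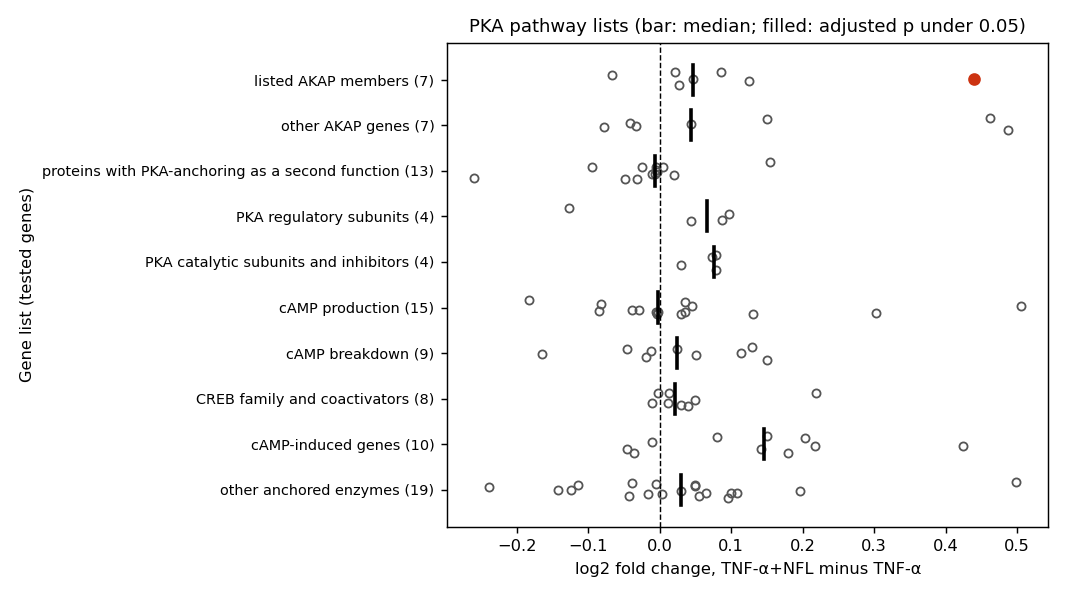
Log2 fold change between the TNF-α+NFL and the TNF-α group for each tested gene of the listed AKAP genes and of 9 PKA pathway lists (number of tested genes in brackets; some genes are in more than 1 list). Bars are medians, the filled point is Akap12, and the medians run from -0.0065 for the second-function anchors to 0.15 for the cAMP-induced genes.

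In the genes that set cyclic AMP production, adenylyl cyclases and G protein subunits with the inhibitory Gnai1, Gnai2 and Gnai3 among them, 0 of 15 passed an unadjusted p of 0.05 in edgeR, with a median log2 fold change of -0.0021. Adcy3, an adenylyl cyclase, was at -0.085 (standard error 0.047, edgeR adjusted p = 0.56) and the soluble cyclase Adcy10 at 0.51 (standard error 0.30, edgeR adjusted p = 0.58), at about 1 CPM. In the phosphodiesterases, which break cyclic AMP down, 1 of 9 passed an unadjusted p of 0.05, the same share as the 11.1% of all tested genes. This was Pde4d, an enzyme that AKAPs hold beside PKA, at 15.3, 15.3 and 15.0 CPM in the TNF-α group and 17.3, 16.03 and 17.3 CPM in the other (log2 fold change of 0.15, standard error 0.069, edgeR adjusted p = 0.45). Pde3b was at 0.13 (standard error 0.10, edgeR adjusted p = 0.71).

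PKA acts on transcription through CREB. Of 8 genes of the CREB family and its coactivators, 1 passed an unadjusted p of 0.05 in edgeR, near the 11.1% of all tested genes. This was Crebbp, which encodes the acetyltransferase CBP. It was at 39.1, 39.9 and 35.6 CPM in the TNF-α group and at 44.8, 47.5 and 41.1 CPM in the other, with a log2 fold change of 0.22 (standard error 0.064, edgeR adjusted p = 0.19). Crtc2 was at 0.050 (standard error 0.046, edgeR adjusted p = 0.76). The list of cAMP-induced genes had the highest median of the 9 PKA pathway lists, 0.15 over 10 genes, with 7 above 0. At an unadjusted p under 0.05 in edgeR there were 4 of the 10, Per1, Fos, Nr4a1 and Pde4d, all higher and all with groups that did not overlap. Of all tested genes, 5.66% were higher by that p and 8.66% by non-overlap. At an adjusted p of 0.05 there were 0 of the 10, where 0.611% of all tested genes passed. Per1, a clock gene, was at 42.1 ± 2.54 CPM (SD, n = 3) and 47.6 ± 0.969 CPM (SD, n = 3), with a log2 fold change of 0.18 (standard error 0.054, edgeR adjusted p = 0.21). Fos was at 0.22 (standard error 0.080, edgeR adjusted p = 0.31). These genes also respond to other signals, serum and stress among them.

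Of 19 other enzymes and partners that AKAPs are known to hold, 3 passed an unadjusted p of 0.05 in edgeR, 1 as higher and 2 as lower, near the 11.1% of all tested genes. Ccnd1, the cell cycle gene of cyclin D1, whose protein binds gravin, was at 482, 473 and 467 CPM in the TNF-α group and at 419, 434 and 435 CPM in the other. The groups did not overlap, and the log2 fold change was -0.14 (standard error 0.036, edgeR adjusted p = 0.12). Ppp1cc, a catalytic subunit of protein phosphatase 1, was at -0.12 (standard error 0.038, edgeR adjusted p = 0.21). Prkd1, a kinase bound by the product of Akap13, was higher in all TNF-α+NFL libraries, with a log2 fold change of 0.20 (standard error 0.067, edgeR adjusted p = 0.26). Prkd1 and Nr4a1 were named after their values were seen.

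The genes most like Akap12 were taken as those with the highest Pearson correlation of log2 CPM with it over the 6 libraries, among 9094 genes with a mean of at least 10 CPM. They were Lrrfip1 (r = 0.996), Armc8 (r = 0.993), Fhl1 (r = 0.992), Tgfb3 (r = 0.991) and Pex5 (r = 0.989). With 6 libraries in 2 groups this r follows both the difference between the groups and the variation within them, and it is given as a description. No p is given for these genes, since their choice used the same libraries. Tgfb3, a TGF-β ligand, was at a log2 fold change of 0.47 (standard error 0.038) and Fhl1, a LIM domain protein of muscle, at 0.28 (standard error 0.041). Lrrfip1 was at 0.20, Armc8 at 0.11 and Pex5, the import receptor of peroxisomes, at 0.064 on the same scale. Among the AKAP genes at this level, the correlation with Akap12 was 0.80 for Akap2, 0.69 for Akap10, 0.64 for Akap11, 0.38 for Akap1, 0.25 for Akap17a, 0.074 for Akap9, 0.067 for Akap13, -0.35 for Akap8l and -0.69 for Akap8.

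Markers of other cell types were read beside Akap12, which fibroblasts, smooth muscle cells and pericytes also express. Of 11 smooth muscle and pericyte markers, 10 were above 3 counts in every library, and their summed level was 5591 to 6015 TPM in the TNF-α group and 6983 to 7323 TPM in the TNF-α+NFL group. By edgeR 3 of the 10 tested were past an adjusted p of 0.05, Mcam, Acta2 and Myh11, all higher in the TNF-α+NFL group, against 0.408% of all tested genes. Their log2 fold changes were 0.37, 0.28 and 0.29 (edgeR adjusted p = 0.0056, 0.010 and 0.041). Leaving out 1 library changed this count in 5 of 6 fits. It became 6 when TNF-α replicate 1 was left out, 1 when TNF-α+NFL replicate 3 was, and 0 when TNF-α replicate 2, TNF-α+NFL replicate 1 or TNF-α+NFL replicate 2 was. Cspg4, known from pericytes, was at 74.5 CPM and 63.1 CPM on average, with groups that did not overlap (log2 fold change of -0.24, standard error 0.070, edgeR adjusted p = 0.22). Des was at -0.13 and Pdgfrb at 0.056 on the log2 scale, with groups that overlapped. Cnn1 was at 0.48, Notch3 at 0.30, Tagln at 0.27 and Smtn at 0.050, not past the threshold, with groups that did not overlap. Of the 10 markers 7 had all TNF-α+NFL libraries higher and 1 lower, against 8.66% and 8.17% of all tested genes, and the median log2 fold change was 0.27. Rgs5, a pericyte marker, was at 3 counts or fewer throughout. The 9 fibroblast markers summed to 8204 to 8516 TPM and 8596 to 8671 TPM in the same order.

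NFL was cleared of fragments and is described by the study as free of living cells. Of cell types found in fat, the 8 adipocyte markers summed to 36.2 to 37.6 TPM in the TNF-α group and 38.3 to 43.4 TPM in the TNF-α+NFL group, with 3 of the 8 above 3 counts in every library and Lep and Retn at 3 counts or fewer. The 9 endothelium markers in the table summed to 1.91 to 2.89 TPM and 3.18 to 3.67 TPM, with 2 of the 9 above 3 counts in every library, Kdr at 0 and Cldn5, Emcn and Tie1 at 3 counts or fewer. Within this sum, Flt1 had a mean of 0.993 TPM with TNF-α and 1.83 TPM with TNF-α+NFL. Vwf, Cldn5 and Erg also had higher means in the TNF-α+NFL group, whereas Pecam1, Tek, Tie1 and Emcn had lower ones. Flt1, 1 of the 2 endothelium markers tested, was at a log2 fold change of 0.75 (standard error 0.14, edgeR adjusted p = 0.031), where 0.408% of all tested genes were called as higher. With 1 library left out it was past 0.05 in 1 of 6 fits, the one without TNF-α replicate 1. The 7 macrophage markers in the table summed to 105 to 115 TPM and 98.2 to 101 TPM, with 2 of the 7 above 3 counts in every library and C1qb at 0. These 2 were Cd14, with means of 67.9 and 61.75 TPM, and Cd68, with means of 39.8 and 37.6 TPM, in the same order. On the CPM scale the groups of Cd14 did not overlap, as in 8.17% of all tested genes as lower, and those of Cd68 overlapped. TNF-α replicate 1 stood apart in low counts of this list, with 40 counts of Csf1r (1 to 7 in the other libraries), 14.95 of Lyz2 (0 in the others), 7 of Ptprc (0 to 2) and 6 of Itgam (0 to 2). Without this library the log2 fold change of Akap12 was 0.42. The 6 blood markers summed to 0.55 to 1.11 TPM and 0.56 to 0.68 TPM, all of them at 3 counts or fewer. The part of these markers in the difference of Akap12 was not tested.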

How the data were processed

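Total RNA of the 6 libraries was enriched with oligo(dT) beads and sequenced in single-end reads. The authors deposited an estimated count per gene, not normalized, an FPKM value and a TPM value for each library. The submitters' processing notes name HISAT2 2.0.4, Bowtie2 2.2.5, RSEM 1.2.12 and the genome build Rnor_6.0, without a role or order. No coordinates of that build are given.

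Rounding to whole numbers preceded the test, edgeR's two-sided quasi-likelihood test (version 4.0.16, R 4.3.3) with filterByExpr, TMM factors and a robust fit. Benjamini-Hochberg adjustment covered 13250 genes. A standard error is the log2 fold change over the root of F. Limma 3.58.1 (voom, and log2 FPKM with a pseudocount), DESeq2 1.42.0, other filters and size factors, a replicate block and leaving out each library gave alternatives. The test was checked on simulated counts with 200 changed genes. It recovered 31.2% of them at a log2 change of 0.3, 71.3% at 0.5 and 90.8% at 1. False calls were 6.03%, 5.31% and 5.05% of the calls, in the same order. Small differences can thus go uncalled. The genes, lists and rules were chosen with earlier results of these data known. The genes named are the 7 listed, the other AKAP genes that passed the filter, per pathway list those past an adjusted p of 0.05 and the 2 with the smallest unadjusted p, and the 5 most like Akap12. Marker genes and the other genes outside this rule were named after their values were seen. The RefSeq table of GRCr8 matched 17068 of 18420 identifiers and gave names and the printed windows, for which motifs were chosen after the data had been seen.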

Additional observations from a re-analysis of the deposited data

How the results depend on the processing

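As a description, since this contrast chose the genes, the log2 fold change of Akap12 lay between 0.41 and 0.47 in each of the 15 fits. Of the 7 listed genes 1 was counted as called, and 0 with limma on log2(FPKM + 1) and on log2(FPKM + 0.1), from which nothing is read. Its difference from the other 6 genes, 0.40, ran from 0.34 to 0.44 over 15 alternatives, and the highest and lowest were fits that left out 1 library. Among these alternatives, the mean of same-numbered differences equals the main value by arithmetic and is no check. Against 81 genes called between the groups, there were 132 with no filter on low counts, 148 with the DESeq2 Wald test, 35 with limma-voom, 2 with limma on log2(FPKM + 1), 2 with log2(FPKM + 0.1) and from 5, without TNF-α+NFL replicate 1, to 930, without TNF-α replicate 1, with 1 library left out. For the PKA pathway genes the count of 0 became 2 with the DESeq2 Wald test and ran from 0 to 6 with 1 library left out, and for the other AKAP genes it became 1 with the DESeq2 Wald test and ran from 0 to 3. The causes were not tested.

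In a fit that took the number as a replicate block, 34 genes were called, 0 of them PKA pathway genes, and the log2 fold change of Akap12 was 0.44. The deviations of same-numbered libraries correlated at 0.030, -0.024 and 0.10, and those of differently numbered ones at -0.104 to 0.068. No pairing by number was visible in them, which does not show that the cultures were handled without pairs. The standard error was 0.30 for Adcy10, at a mean of 0.922 CPM with TNF-α, and 0.044 for Akap12, at 199 CPM.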

Other observations

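Among the 13 chondrocyte markers tested, 0 passed an adjusted p of 0.05 in edgeR, where 0.611% of all tested genes passed. At an unadjusted p of 0.05 in edgeR 2 passed, both higher in the TNF-α+NFL group, where 5.66% of all tested genes were. Col11a1, a minor cartilage collagen, was at 1699, 1574 and 1590.0 CPM in the TNF-α group and at 1848, 1999 and 1812 CPM in the TNF-α+NFL group (edgeR adjusted p = 0.052), and Col2a1 at 19.3 ± 1.27 CPM (SD, n = 3) and 22.7 ± 1.39 CPM (SD, n = 3) (edgeR adjusted p = 0.22).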
